A study of Mus musculus with 10 samples.

Results

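The 35 genes described here are transcribed mainly in the oocyte, and their RNA was measured in libraries captured as granulosa cells, the somatic cells that surround it. They were found by symbol among the 35087 gene symbols of the tables, and 35 of 35 were present. The genes were proposed with earlier results of these libraries in view: some were picked from a split of the libraries that followed oocyte RNA. Their covariation across libraries and their direction between the groups are therefore given as a description. The title of the study is about follicle atresia, the loss of follicles, and names HIF1, FOXO1, Bim and Bcl-XL. Female C57B6/J mice of wild-type genotype and 3 weeks of age received the antioxidant N-acetyl-L-cysteine (NAC) at 150 mg/kg by intraperitoneal injection on 3 days in a row (4 libraries), or normal saline (6 libraries), and ovaries were taken on day 4. Granulosa cells were cut out by laser microdissection and polyadenylated RNA was amplified with the GEO-seq protocol for low-input captures. The labels put all 10 libraries in batch 1 but do not say which animal a library came from or whether animals were pooled. The p-values therefore reflect variation among captures, which may be partly technical.

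An oocyte grows inside its follicle while it stays arrested in meiosis, and it stores RNA and protein for the first days of the embryo. It secretes growth factors of the TGF-beta family that act on the granulosa cells, and it builds the zona pellucida, the glycoprotein coat between the oocyte and those cells. Transcription factors such as FIGLA and NOBOX switch on much of this program. Granulosa cells reach the oocyte through long projections that cross the coat, so the 2 cell types lie in close contact in every follicle.

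The promoters of these genes were searched for short sequence elements. FIGLA is a basic helix-loop-helix protein, a class that binds the E-box CANNTG. In the 250 bases before the start site, 22 of the 24 members with a RefSeq promoter entry held CANNTG (91.7%), against 69.3% of 27025 genes. The form CAGGTG, which reads CACCTG on the other strand and is 1 of the sequences covered by CANNTG, was held by 11 of 24 (45.8%) against 19.4%. Both strands were searched, and a match is a run of letters and no proof of binding. A gene counted if any of its listed promoters had a match, and genes were not matched for base composition. Similar promoters, such as those of Fbxw14 and Fbxw24, counted separately. Whether FIGLA accounts for the difference was not tested. TAATTG, an element bound by NOBOX, was held by 2 of 24 (8.3%) against 8.3%, and TATAAA by 3 of 24 (12.5%) against 14.3%. Stretches with the CAGGTG form, from genes of different roles, are shown for 4 genes, 5′ to 3′ on the gene's strand with the E-box in capitals.
Zp3: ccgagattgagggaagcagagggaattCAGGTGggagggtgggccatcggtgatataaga
Nobox: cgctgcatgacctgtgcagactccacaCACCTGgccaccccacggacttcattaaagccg
Padi6: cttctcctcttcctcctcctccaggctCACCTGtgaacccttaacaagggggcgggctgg
Oas1h: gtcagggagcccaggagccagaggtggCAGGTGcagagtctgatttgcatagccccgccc
The sequences are from RefSeq on GRCm38.p6, at chr5:135980023-135980082 (plus strand), chr6:43309572-43309631 (minus), chr4:140742689-140742748 (minus) and chr5:120861307-120861366 (plus). The E-box begins at -55, -50, -78 and -88 from the start site, in the same order.

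A second pair shows how alike neighbouring members can be. Fbxw14 and Fbxw24 encode F-box WD40 proteins and lie on chromosome 9, at 109270790 to 109287676 and 109601116 to 109626057. The 80 bases directly before each start site are given in lower case throughout.
Fbxw14: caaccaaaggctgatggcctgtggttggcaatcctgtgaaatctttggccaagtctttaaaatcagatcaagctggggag
Fbxw24: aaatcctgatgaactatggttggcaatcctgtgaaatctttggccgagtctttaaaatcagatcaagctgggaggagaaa
They stand at chr9:109287677-109287756 and chr9:109626060-109626139 on the minus strand. Over the 250 bases before the start sites, 226 of 256 aligned positions were identical (88.3%).

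The members lie on 14 chromosomes, with 7 on chromosome 5, 6 on chromosome 7 and 6 on chromosome 9. Near-identical sequence matters for counts that were split between similar transcripts. Of the 31-base words of their annotated transcripts, 14 members shared none with another gene, and 9 shared 20% or more. The highest shares were 70.4% for Fbxw14 (mostly with Fbxw28), 42.3% for Omt2a (with Omt2b), 41.4% for Zar1 and 38.7% for Obox5. Khdc3 (36.7%), Dppa3 (29.6%), Oas1c (25.2%), Oas1d (22.3%) and Fbxw24 (20.6%) were the others. Reads from the shared stretches of these 9 genes may have been split with similar genes, which makes their values less certain. The percentages describe sequence and do not give the size of an error in the counts. Uchl1 shared 14.8% with its antisense gene Uchl1os, and whether the counting used strand is not given in the sources used here.

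The libraries held 116461 (NAC 3) to 2488408 (saline 6) estimated reads, and NAC 2 and NAC 3 were the shallowest. Granulosa markers were present as labelled, with reads for 12 of 12 in 9 libraries and 11 of 12 in NAC 2; their summed level was 9837 to 25120 CPM in NAC and 15010 to 44360 in saline. CPM here are reads relative to a library total that was scaled with TMM factors. Markers of theca and stroma summed to 64.4 to 1847 CPM in NAC and 95.5 to 969 in saline, of smooth muscle and pericytes to 8.06 to 684 and 7.21 to 316, and of endothelium to 48.3 to 186 and 23.4 to 64.6. Immune markers summed to 0 to 73.7 CPM in NAC and 0 to 17.9 in saline, surface epithelium markers to 0 to 95.2 and 0 to 3.91, and haemoglobin genes to 0 to 843 and 0 to 85.7, with 843 CPM in NAC 4. Among these lists, reads were seen for 3 to 8 of 8 theca and stroma genes, 1 to 6 of 6 smooth muscle genes, 2 to 6 of 6 endothelial genes, 0 to 5 of 6 immune genes, 0 to 6 of 6 surface epithelium genes and 0 to 4 of 4 haemoglobin genes. NAC 3 had the fewest in the first 3, and all 6 surface epithelium genes were seen only in NAC 1. The part of these other cells, and of depth, in the values of the oocyte genes was not tested.

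Reads of these genes were found in every captured library, at very unequal levels. The 35 genes held 0.005% to 0.49% of all reads. In saline 5 and saline 6, 21 of 112 and 17 of 134 member reads were of genes other than Uchl1 and Tle6. Of those, 11 and 9 were of Plat, so oocyte RNA in these 2 libraries rests on few reads. Their summed level was 760.4, 876, 2441 and 4362 CPM in NAC 1 to 4. In saline 1 to 6 it was 150.2, 1785, 122, 4320, 57.4 and 59.6 CPM. NAC 4 and saline 4 were thus highest, saline 2 lay among the NAC libraries, and the other 4 saline libraries lay below each NAC library. NAC 4 and saline 4 were almost equal only on this scale: summed TPM were 4480 and 3092, and the shares of all reads 0.49% and 0.383%. The NAC mean was 2110 ± 1686 CPM (SD, n = 4) and the saline mean 1082 ± 1724 CPM (SD, n = 6), which gives a log2 ratio of 0.96. Without NAC 4 the ratio was 0.33, and without saline 4 it was 2.28. The SD was about as large as the mean in NAC and larger in saline. In these bulk captures, fewer oocyte fragments and less RNA per oocyte cannot be told apart.

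**Figure D1:**
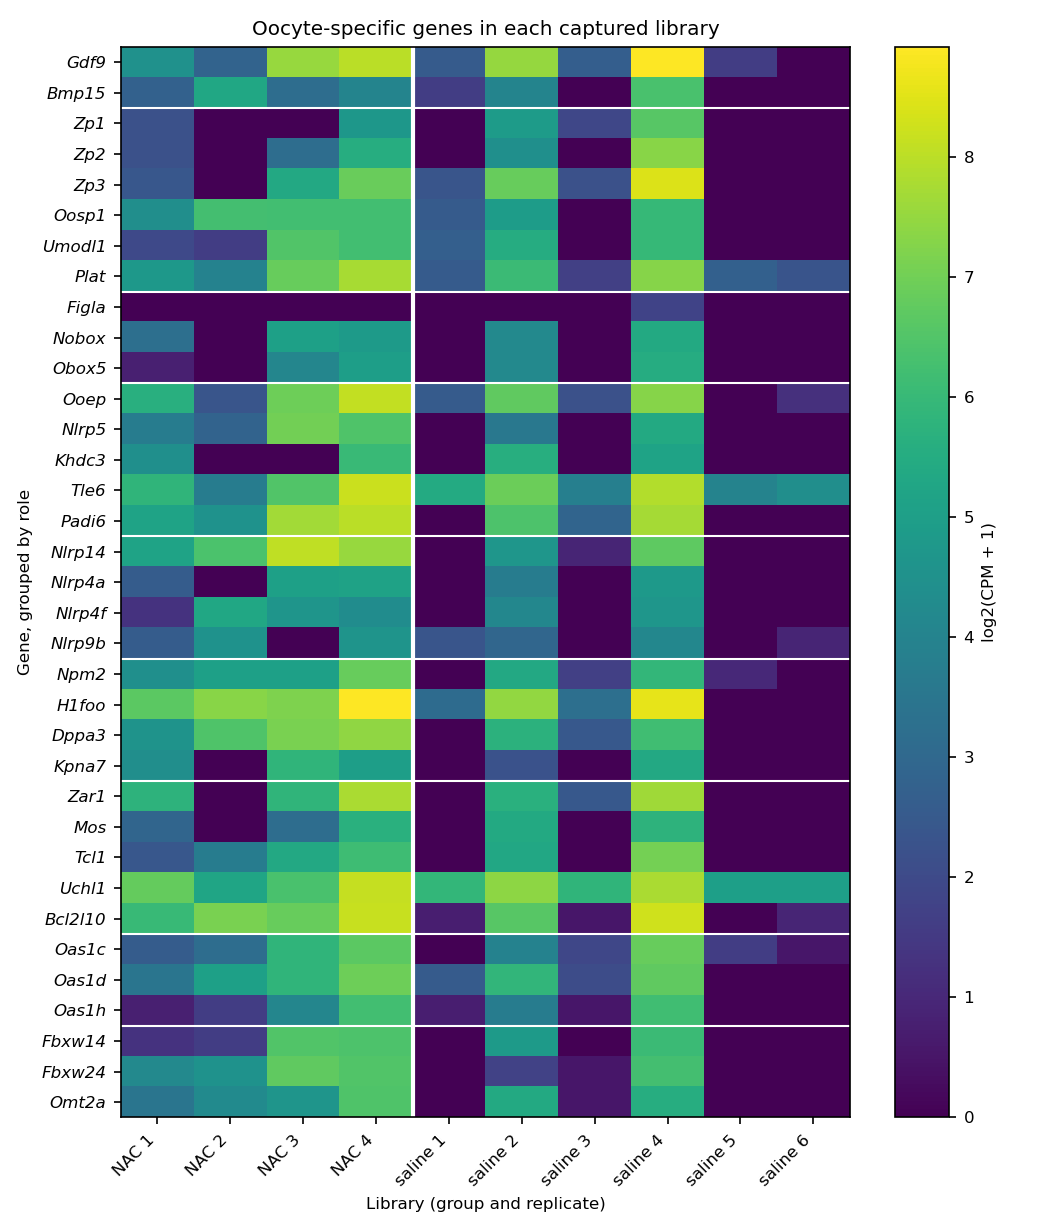
Level of each of the 35 genes (rows, grouped by role and separated by white lines) in each of the 10 libraries (columns), as log2(CPM + 1) on the colour scale. NAC 4 and saline 4 are bright in most rows, and saline 5 and saline 6 are dark except for Uchl1, Tle6 and Plat.

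Reads were seen for 34, 24, 31 and 34 of the 35 genes in NAC 1 to 4, and for 14, 34, 19, 35, 6 and 7 in saline 1 to 6. Of the 35, 26 had 0 reads in both saline 5 and saline 6. Only Uchl1, Tle6 and Plat had reads in all 10 libraries. Uchl1, a ubiquitin hydrolase gene abundant in oocytes and neurons (chromosome 5, 66676091 to 66687234), still stood at 31.8 and 32.0 CPM in saline 5 and saline 6. Tle6, a maternal complex gene, stood at 14.9 and 20.0 there. Plat, which encodes tissue plasminogen activator and is also known from granulosa cells, stood at 5.64 and 4.00. Without Uchl1 and Tle6, the sum of the other 33 genes was 594, 827, 2271 and 3789 CPM in NAC and 49.2, 1497, 52.3, 3867, 10.8 and 7.56 CPM in saline. The order of the libraries from highest to lowest then began with saline 4, followed by NAC 4.

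A list of 58 other oocyte genes, taken from general knowledge, was summed in the same libraries. Leaving out Zbed3, Taf4b, Kit and Gja4, which other cells also express, the remaining 54 had 188, 594, 1337 and 1350 CPM in NAC 1 to 4. In saline 1 to 6 they had 42.9, 547, 10.8, 1173, 8.71 and 9.34 CPM. Saline 2 and saline 4 were within the NAC range, whereas for the 33 genes saline 4 lay just above it. The 2 sums were not proportional: reads of the 54 genes were 0.316 times those of the 33 in NAC 1, 0.356 in NAC 4, 0.365 in saline 2 and 0.303 in saline 4, but 0.718 in NAC 2 and 0.589 in NAC 3. In the saline libraries with few oocyte reads the values were 0.873 in saline 1, 0.207 in saline 3, 0.810 in saline 5 and 1.24 in saline 6.

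**Figure D2:**
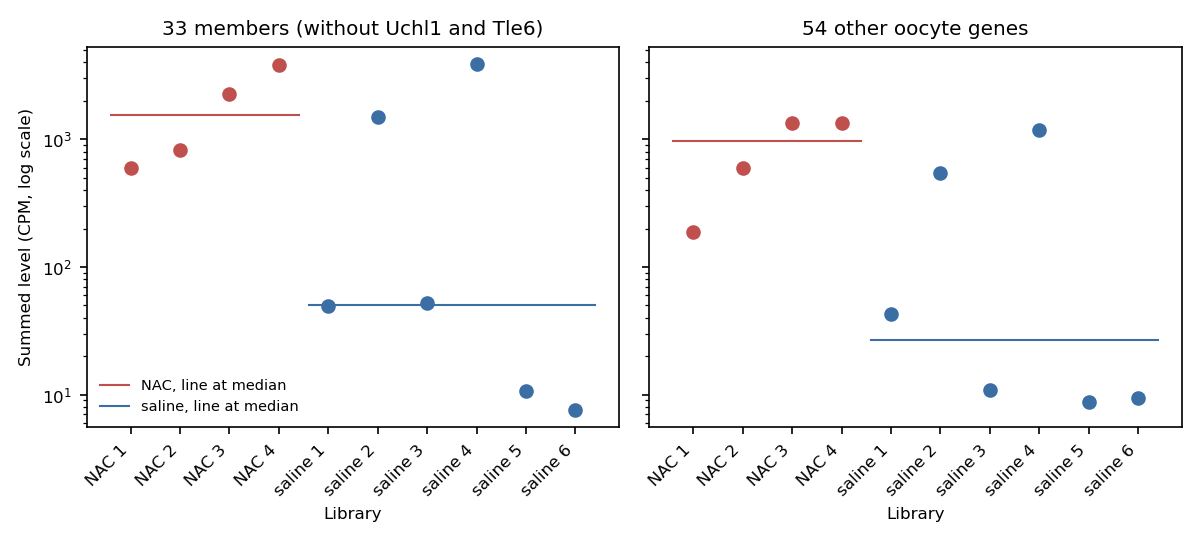
Summed level (CPM, log scale) of 33 of the oocyte-specific genes (left, without Uchl1 and Tle6) and of 54 other oocyte genes (right) in each library; lines mark group medians. Saline 2 sits within the NAC range in both panels, saline 4 within it on the right and just above it on the left (3867 against 3789 CPM), and the other 4 saline libraries sit below it.

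The genes largely shared one order of libraries, which is how some of them were chosen. NAC 4 was among the 3 highest libraries for 32 of 35 genes and saline 4 for 33. Within saline, saline 4 was highest for 34 and saline 2 second for 33. NAC 4 was the single highest library for 15 genes, saline 4 for 12, NAC 3 for 6 and NAC 2 for 2. With library size alone NAC 4 was highest for 19 and saline 4 for 9, and in TPM for 21 and 9. In 19 genes each NAC library was above saline 1, saline 3, saline 5 and saline 6. These are the saline libraries with the lowest summed level, so the count follows that order, and its share over all genes was not computed. With saline 2 and saline 4 kept, the groups overlapped in each of the 33 tested genes.

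Growth factors came first by role. Gdf9 and Bmp15 encode paired TGF-beta family ligands that drive growth of granulosa cells and hold them in a cumulus state. Gdf9 (chromosome 11, 53431023 to 53437904) stood at 21.6, 6.14, 185 and 254 CPM in NAC 1 to 4. In saline 1 to 6 it stood at 4.85, 179, 5.41, 471, 2.05 and 0. The NAC range lay inside the saline range, and the log2 fold of NAC over saline was 0.04 (SE 1.71 and adjusted p = 0.993 by edgeR). Bmp15 (chromosome X, 6314107 to 6320721) stood at 5.77, 38.9, 8.06 and 15.0 CPM in NAC and at 2.08, 15.1, 0, 80.6, 0 and 0 in saline. Here the log2 fold was 0.08 (SE 1.46 and adjusted p = 0.984 by edgeR). Saline 4 was highest for both genes, but in NAC 2 the order of the pair turned, with 3 reads of Gdf9 and 19 of Bmp15. Per length, in TPM (a measure that corrects for transcript length), Gdf9 was 8.05 times Bmp15 in NAC 1, 30.5 times in NAC 4, 21.5 times in saline 2 and 10.6 times in saline 4.

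Zona pellucida genes came next. Zp1, Zp2 and Zp3 encode the coat's glycoproteins, of which ZP3 and ZP2 form filaments and ZP1 links them. Zp3 (chromosome 5, 135980099 to 135988624), whose E-box stretch is shown above, stood at 4.33, 0, 40.3 and 117 CPM in NAC and at 4.15, 113, 3.61, 351, 0 and 0 in saline. Zp2 (chromosome 7, 120126772 to 120145291) stood at 3.61, 0, 8.06 and 46.2 CPM in NAC and at 0, 20.7, 0, 161, 0 and 0 in saline. Zp1 (chromosome 19, 10914287 to 10920632) stood at 3.61, 0, 0 and 25.2 CPM in NAC and at 0, 28.7, 2.70, 95.7, 0 and 0 in saline. Saline 4 was the highest library for each, and NAC 2 had 0 reads of all 3. Zp2 and Zp3 were the only tested members with a negative log2 fold, -0.85 (SE 1.91 and adjusted p = 0.854 by edgeR) and -0.88 (SE 1.86 and adjusted p = 0.843 by edgeR). Both turned positive on the log2(TPM + 1) scale, to 0.90 and 0.54. Zp1 did not pass the filter on low counts. Zp3 made up 50.3% of the zona TPM in NAC 1, 70.9% in NAC 4, 79.3% in saline 2 and 70.2% in saline 4.

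The other secreted or surface members had another order. Oosp1, which encodes an oocyte-secreted protein (chromosome 19, 11667460 to 11691150), stood at 20.2, 75.8, 72.5 and 73.0 CPM in NAC and at 4.85, 29.7, 0, 61.5, 0 and 0 in saline. NAC 2, NAC 3 and NAC 4 thus had values above that of saline 4, and NAC 1 lay between saline 1 and saline 2. The values rest on 37 reads in NAC 2 and 9 in NAC 3, so the place of these libraries relative to saline 4 is not firm. Its log2 fold was 1.87 (SE 1.29 and adjusted p = 0.495 by edgeR). Umodl1, a uromodulin-like gene, and Plat had log2 folds of 1.02 (SE 1.58) and 1.20 (SE 1.22).

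Transcription factor genes were low. Figla (chromosome 6, 86016171 to 86020996), which encodes the activator of zona genes, had 5 reads in saline 4 and 0 in the other 9 libraries, so no fold was computed. Nobox, a homeobox gene of primordial follicles and growing oocytes (chromosome 6, 43303674 to 43309554), stood at 8.66, 0, 32.2 and 27.9 CPM in NAC and at 0, 17.4, 0, 41.5, 0 and 0 in saline. It was seen in the 5 libraries with reads for 31 or more of the 35 genes and in no other. The log2 fold of Nobox was 0.69 (SE 1.46 and adjusted p = 0.843 by edgeR), and that of the homeobox gene Obox5 was 0.19 (SE 1.56).

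Genes of the subcortical maternal complex and of the lattices that store maternal protein all had positive log2 folds, with a median of 1.30 over 5 genes and 0 past the test. Nlrp5, also called Mater, a core gene of that complex (chromosome 7, 23385889 to 23441922), stood at 12.3, 6.14, 129 and 85.9 CPM in NAC and at 0, 10.8, 0, 41.5, 0 and 0 in saline. NAC 3 and NAC 4 lay above saline 4. Its log2 fold was 2.60 (SE 1.47, edgeR unadjusted p = 0.104, adjusted p = 0.406). Tle6, a partner in the complex (chromosome 10, 81590904 to 81601073), stood at 56.3, 12.3, 88.6 and 295 CPM in NAC and at 42.2, 121, 13.5, 236, 14.9 and 20.0 in saline. Its groups overlapped throughout (log2 fold 0.65, SE 0.95 and adjusted p = 0.762 by edgeR). Ooep and Khdc3, 2 further complex genes, and Padi6, which is needed for the lattices, had log2 folds of 1.30, 0.87 and 1.31.

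The other NLRP genes encode maternal-effect or oocyte-restricted proteins of the same family as NLRP5. Nlrp14 (chromosome 7, 107166990 to 107198102) stood at 34.6, 81.9, 266 and 186 CPM in NAC and at 0, 24.96, 0.901, 104, 0 and 0 in saline. Only saline 4 lay within the NAC range. Its log2 fold was 2.63 (SE 1.505, edgeR unadjusted p = 0.113, adjusted p = 0.417). Nlrp9b (chromosome 7, 19991465 to 20073306) stood at 5.05, 22.5, 0 and 23.6 CPM in NAC and at 4.15, 6.59, 0, 16.6, 0 and 0.889 in saline, with a log2 fold of 1.57 (SE 1.09 and adjusted p = 0.491 by edgeR). Nlrp4a and Nlrp4f had log2 folds of 1.34 (SE 1.38) and 1.54 (SE 1.32).

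Chromatin genes included the member with the highest level per length. H1foo, the oocyte linker histone gene (chromosome 6, 115944938 to 115950236), had a mean of 174 TPM over the 10 libraries. It stood at 99.6, 160, 145 and 481 CPM in NAC and at 7.62, 176, 8.56, 383, 0 and 0 in saline, with a log2 fold of 1.23 (SE 1.51 and adjusted p = 0.712 by edgeR). NAC 4 was highest, and saline 2 lay above NAC 1, NAC 2 and NAC 3. Dppa3, also called Stella, which protects DNA methylation in the egg (chromosome 6, 122626410 to 122630272), stood at 23.1, 86.0, 137 and 170 CPM in NAC and at 0, 51.3, 4.51, 72.3, 0 and 0 in saline. NAC 2, NAC 3 and NAC 4 lay above each saline library, and NAC 1 lay below saline 2. Its log2 fold was 2.24 (SE 1.36, edgeR unadjusted p = 0.130, adjusted p = 0.442). Npm2, the nucleoplasmin gene that remodels sperm chromatin (chromosome 14, 70647302 to 70659244), stood at 20.9, 32.8, 32.2 and 114 CPM in NAC and at 0, 40.5, 2.25, 59.1, 1.02 and 0 in saline (log2 fold 1.60, SE 1.26 and adjusted p = 0.552 by edgeR). Kpna7, an importin gene of the oocyte, had a log2 fold of 1.72 (SE 1.45).

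Among genes of RNA control, meiosis and signalling, Zar1 encodes a protein that regulates stored maternal RNA (chromosome 5, 72576806 to 72581254). It stood at 52.7, 0, 56.4 and 221 CPM in NAC and at 0, 49.9, 4.51, 200, 0 and 0 in saline (log2 fold 1.03, SE 1.68 and adjusted p = 0.792 by edgeR). Bcl2l10, a BCL2 family gene of the oocyte (chromosome 9, 75347758 to 75351632), stood at 62.8, 137, 113 and 288 CPM in NAC and at 0.692, 95.1, 0.451, 309, 0 and 0.889 in saline. Outside saline 2 and saline 4 it was under 1 CPM in saline. Its log2 fold was 1.17 (SE 1.59 and adjusted p = 0.744 by edgeR). Uchl1 stood at 109.7, 36.9, 80.5 and 278 CPM in NAC and at 58.9, 168, 56.3, 217, 31.8 and 32.0 in saline (log2 fold 0.48, SE 0.59 and adjusted p = 0.708 by edgeR). Its SE was the smallest of the 33 tested members. Mos, the kinase gene of meiotic arrest, and Tcl1, a coactivator of AKT, had log2 folds of 0.16 (SE 1.63) and 0.15 (SE 1.73).

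The 3 oligoadenylate synthetase genes lie together on chromosome 5 between 120800194 and 120921652, and belong to a family best known from antiviral defence. Oas1d stood at 10.1, 32.8, 56.4 and 121 CPM in NAC and at 4.85, 57.5, 3.16, 106, 0 and 0 in saline. Oas1c, Oas1d and Oas1h had log2 folds of 0.93, 0.96 and 0.79, and each overlapped between the groups. Fbxw14 stood at 1.44, 2.05, 88.6 and 83.8 CPM in NAC and at 0, 28.3, 0, 66.9, 0 and 0 in saline. Fbxw24, with the similar promoter shown above, stood at 17.3, 22.5, 104.7 and 89.2 CPM in NAC and at 0, 2.36, 0.451, 74.7, 0 and 0 in saline. The 2 genes thus differed most in NAC 1, NAC 2 and saline 2. Their log2 folds were 1.35 (SE 1.71) and 2.08 (SE 1.52), and that of Omt2a, an oocyte maturation gene, was 1.30 (SE 1.42).

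The comparison of NAC with saline asks how an antioxidant alters the captured transcripts. Of the 35 genes, 33 passed the filter on low counts, and edgeR called 0 of 33 at an adjusted p under 0.05, against 0.0731% of the 10945 genes tested (0.0183% higher and 0.0548% lower). At an unadjusted p under 0.05 it was also 0 of 33, against 16.2% of the genes tested, and DESeq2 and limma on TPM called 0 members. The groups overlapped in 33 of 33, whereas they did not overlap in 5.38% of the genes tested. The log2 fold was positive in 31 of 33 and negative in 2, with a median of 1.17, beside 51.0% positive and a median of 0.02 over the genes tested. The 2 members without a test both had the lower mean in NAC: Zp1 had 7.21 CPM against 21.2 in saline, and Figla 0 against 0.407. By mean CPM, 30 of all 35 members were higher in NAC. Since 4 saline libraries were low for most of these genes together and some genes were chosen on that order, the shared direction is no separate evidence for each gene. The SE ran from 0.59 to 1.91, and the adjusted p from 0.406 to 0.993. Without NAC 2 and NAC 3 the median was 1.39 with 0 called. It rested on 2 libraries: without NAC 4 it was 0.05, and without saline 4 it was 2.49. Without saline 4, 1 of the 23 members then tested was called, Fbxw24 (log2 fold 6.34, SE 0.96 and adjusted p = 0.0451 by edgeR), against 0.0189% of 10561 genes. Fbxw24 had 153 reads in saline 4 and 0, 5, 1, 0 and 0 in saline 1, 2, 3, 5 and 6. Leaving out saline 4 thus took away nearly all its saline reads and largely set this call in advance. In the main fit its adjusted p was 0.524 by edgeR.

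**Figure D3:**
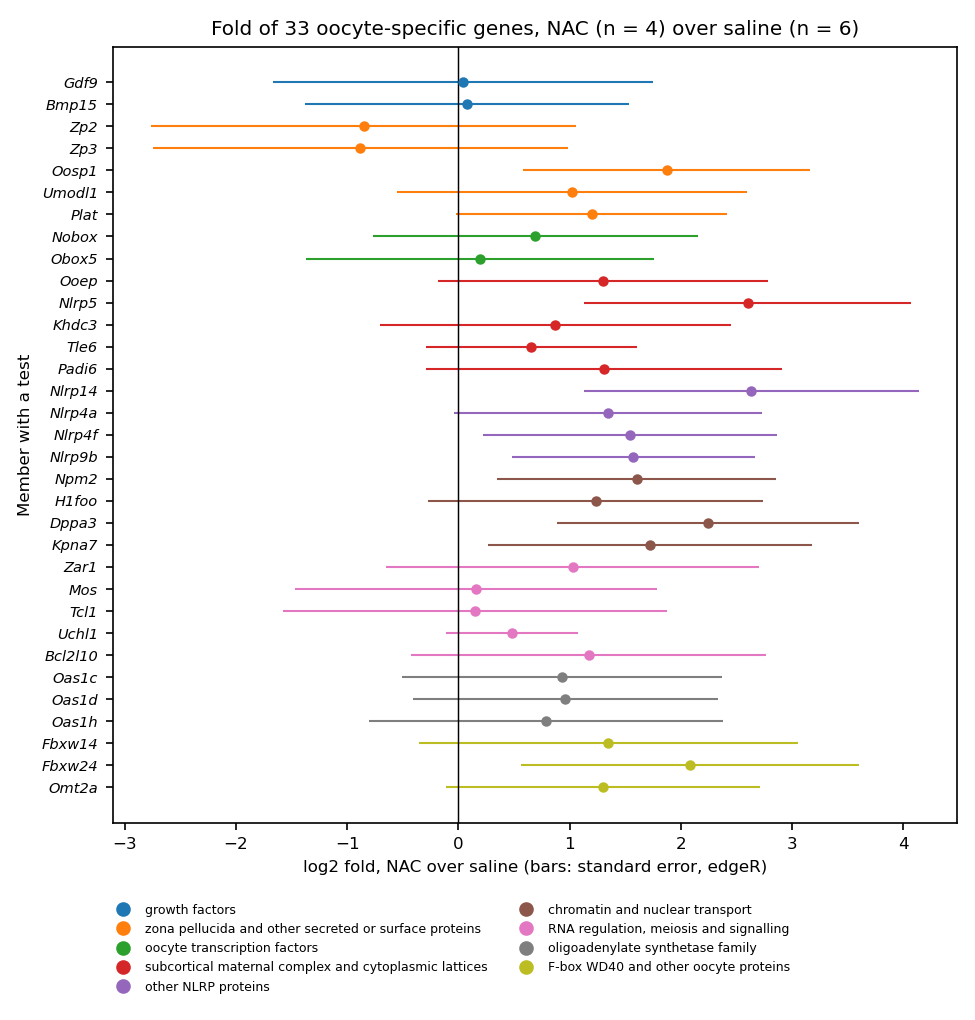
Log2 fold of NAC over saline for the 33 tested genes (points, coloured by role) with the standard error of edgeR's fit (bars). Zp2 and Zp3 are the 2 genes left of 0, and no gene passed the test.

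The make-up of the oocyte RNA differed between libraries as well. Shares of the summed TPM of the 35 genes are given for the 4 libraries with at least 500 member reads. The zona genes made up 1.08% in NAC 1, 4.18% in NAC 4, 8.16% in saline 2 and 13.4% in saline 4. The growth factors made up 2.56%, 4.48%, 7.51% and 9.71%, in the same order. H1foo had 15.6%, 14.4%, 12.6% and 12.9%, and Bcl2l10 had 8.69%, 7.74%, 6.003% and 9.16%. The zona and growth factor shares were thus higher in the 2 saline libraries than in the 2 NAC libraries, while in these 4 libraries those of H1foo and Bcl2l10 lay closer together. These shares are a description over 4 libraries, with no test, and a rise in one share lowers the others.

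In libraries with fewer oocyte reads the result depended on the denominator, where the 33 genes without Uchl1 and Tle6 held 71 of 217 member reads in saline 1 and 116 of 271 in saline 3. As a share of the reads of all 35 genes, the zona genes had 1.98% in NAC 3 and 4.32% in NAC 4, against 2.77% in saline 1, 5.17% in saline 3, 9.10% in saline 2 and 14.0% in saline 4, so saline 1 lay below NAC 4. In TPM, both saline 1 (2.15%) and saline 3 (3.59%) lay below NAC 4. As a share of the reads of the 33 genes without Uchl1 and Tle6, a denominator chosen after seeing the data, the zona genes made up 1.94% in NAC 1 (95% Wilson interval 1.20% to 3.13%), 2.13% in NAC 3 (0.979% to 4.56%) and 4.98% in NAC 4 (4.49% to 5.51%). In NAC 2 they had 0 of 404 reads, where the Wilson interval reaches 0.942% and a floor of 3 reads gives 0.743%. In saline they made up 8.45% in saline 1 (3.93% to 17.2%), 10.9% in saline 2 (9.82% to 12.0%), 12.1% in saline 3 (7.33% to 19.2%) and 15.7% in saline 4 (14.9% to 16.5%). Saline 5 and saline 6 had 0 of 21 and 0 of 17 reads, too few to place (Wilson limits of 15.5% and 18.4%, and 14.3% and 17.65% by the floor of 3 reads). The interval of saline 1 overlapped those of NAC 3 and NAC 4, and the intervals cover counting error only, since PCR copies cannot be told from separate molecules here.

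Other shares followed other orders. The growth factors had 4.61%, 5.45%, 8.51% and 7.10% of these reads in NAC 1 to 4 and 14.1%, 13.0%, 10.3% and 14.3% in saline 1 to 4. That split also rests on the denominator: of all 35 genes' reads they had 3.61%, 5.14%, 7.92% and 6.17% in NAC 1 to 4 and 4.61%, 10.9%, 4.43% and 12.8% in saline 1 to 4, so the groups overlapped. The 4 other NLRP genes had 7.77%, 17.3%, 14.2% and 6.93% in NAC 1 to 4 and 8.45%, 4.03%, 1.72% and 4.44% in saline 1 to 4. Dppa3 had 3.88%, 10.4%, 6.03% and 4.48% in NAC, and 0 of 71 reads, 3.43%, 8.62% and 1.87% in saline. So the NLRP share was highest in NAC 2 and NAC 3, the shallowest libraries, and the Dppa3 share overlapped between the groups. H1foo ranged from 6.38% to 19.3% in NAC and from 9.91% to 16.4% in saline 1 to 4. Bcl2l10 had 10.6%, 16.6%, 4.96% and 7.60% in NAC 1 to 4, and 1.41%, 6.36%, 0.862% and 8.01% in saline 1 to 4, with a single read each in saline 1 and saline 3.

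**Figure D4:**
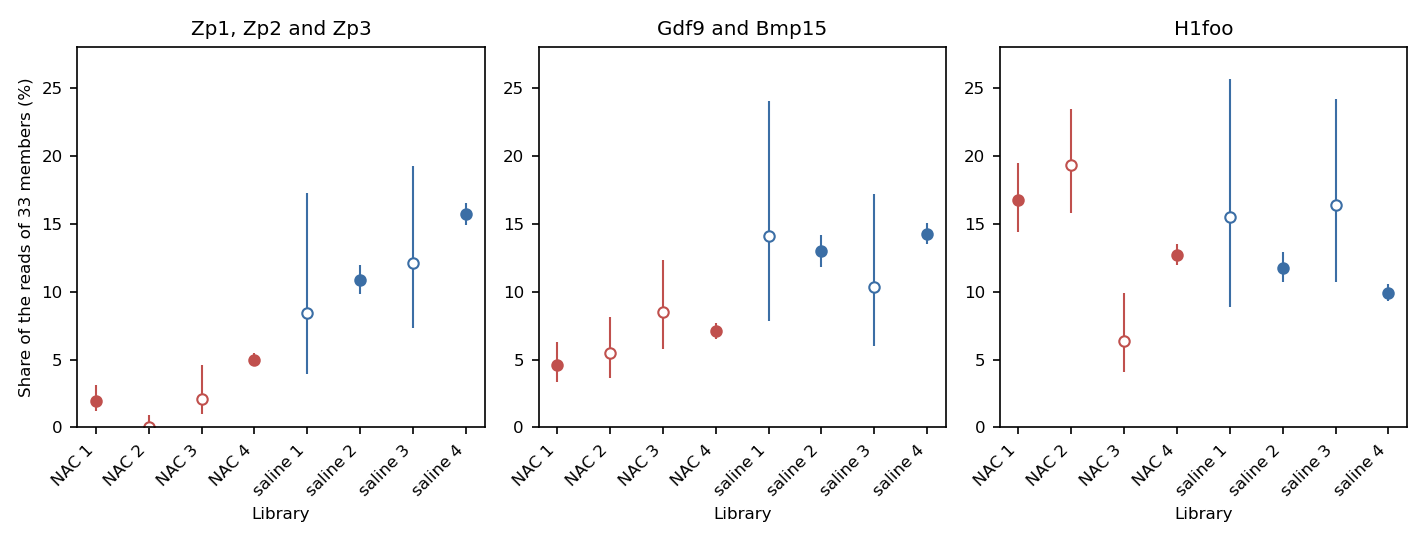
Share (%) of the zona genes, the growth factors and H1foo in the reads of 33 oocyte-specific genes per library, with 95% Wilson intervals; open circles are libraries with under 500 member reads, and saline 5 and saline 6 are not drawn. The zona share lies between 0 and 4.98% in NAC and between 8.45% and 15.7% in saline 1 to 4, and the H1foo share overlaps. The denominator of 33 genes was chosen after seeing the data, and the zona share of saline 1 rests on 6 of 71 reads. On other denominators the zona shares of the groups overlap. Of the reads of all members, saline 1 has 2.77% and NAC 4 has 4.32%. In TPM, saline 1 (2.15%) and saline 3 (3.59%) lie below NAC 4 (4.18%).

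NAC 4 and saline 4 allow a closer look, since they had the most member reads. In CPM, where their sums were 4362 and 4320, 21 of the 35 genes were higher in NAC 4 and 14 in saline 4. Bmp15 was 5.36 times higher in saline 4, Zp1 3.79 times, Zp2 3.48 times, Zp3 2.99 times, Tcl1 1.87 times and Gdf9 1.85 times. Dppa3 was 2.35 times higher in NAC 4, Nlrp5 2.07 times, Npm2 1.94 times, Omt2a 1.88 times, Khdc3 1.86 times, Nlrp14 1.79 times and Ooep 1.73 times. The genes higher in saline 4 thus included the zona coat and both growth factors, and those higher in NAC 4 included each of the 5 maternal complex genes. Saline 2 did not share the low level of the complex genes. They made up 17.4% of the summed TPM of the members there, beside 18.0% in NAC 1, 17.3% in NAC 4 and 11.1% in saline 4. In TPM, where the sums were 4480 and 3092, 24 genes were higher in NAC 4 and 11 in saline 4. On that scale Bmp15 was 4.09 times higher in saline 4, Zp2 2.64 times, Zp3 2.19 times, Zp1 1.88 times and Gdf9 1.41 times, while Nlrp14 was 3.64 times higher in NAC 4, Dppa3 3.10 times and Nlrp5 2.71 times. This compares 1 library with 1 library, with no replicate check, and not the treatments.

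**Figure D5:**
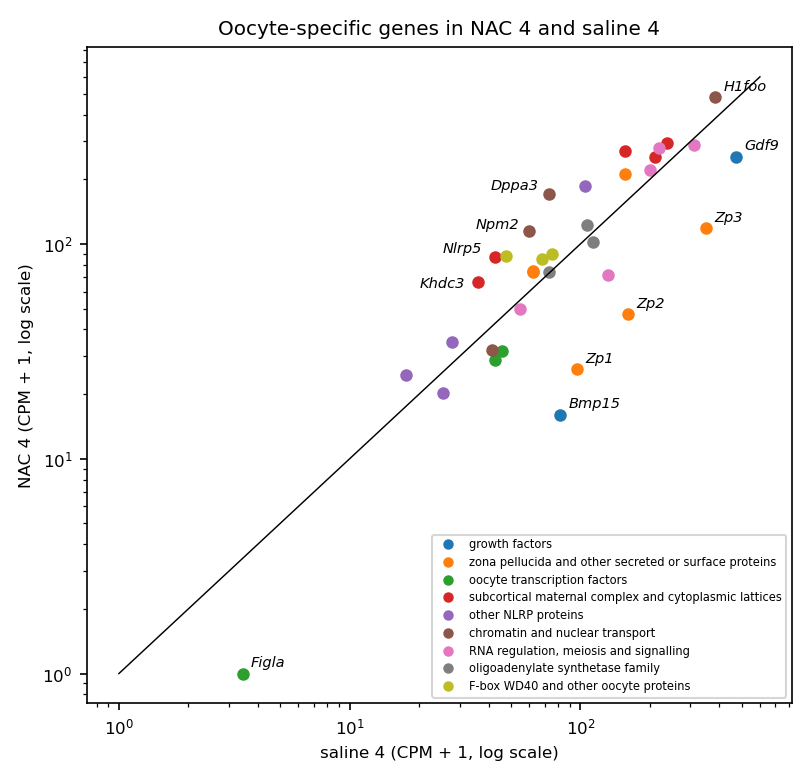
Level of the 35 genes in NAC 4 against saline 4 (CPM + 1, log axes, coloured by role), with the line of equality. Bmp15, the 3 zona genes and Figla, which had 0 reads in NAC 4, lie well below the line, and Dppa3, Nlrp5 and Npm2 lie above it.

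By mean TPM over the 10 libraries, H1foo (174) was followed by Uchl1 (135), Bcl2l10 (105), Tle6 (102), Dppa3 (102), Gdf9 (74.0), Zp3 (60.1), Oosp1 (59.1), Zar1 (51.8) and Npm2 (46.0). Figla was lowest at 0.413. H1foo spanned 0 to 645 TPM over the libraries, so neighbours in this order did not differ beyond their spread over libraries. The deposited lengths behind TPM can be far shorter than the annotated transcript (Tle6 43.9 to 167 bases against 2015), which raises its TPM. Per kilobase of the longest annotated transcript, 8 of these 10 genes stayed among the top 10.

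Most of the other oocyte genes that passed the filter had the same direction as the members, and the same libraries set both results. The filter left out genes with low counts in most libraries, so the counts of direction do not cover them. By mean CPM some of the 58, such as Astl and Izumo1r, were lower in NAC. Of 58, 36 passed the filter and edgeR called 0, with 0 at an unadjusted p under 0.05 as well (16.2% of all genes tested), 34 positive and 2 negative log2 folds and a median of 1.52. The 4 with the smallest p were Nlrp4b, an NLRP gene (log2 fold 2.64, SE 1.32 and adjusted p = 0.336 by edgeR), Wee2, the kinase gene that keeps oocytes in meiotic arrest (2.31), the homeobox gene Lhx8 (2.37) and the RNA-binding protein gene Dazl (2.08). Wee2 stood at 2.89, 38.9, 24.2 and 54.8 CPM in NAC and at 0, 7.06, 0.451, 28.8, 0 and 0 in saline. Those with the highest mean TPM were Zbed3 (106 TPM), Omt2b (46.2), Obox2 (38.7) and Obox1 (34.2), with log2 folds of 0.35, 2.12, 1.67 and 1.62.

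On the granulosa side, 12 genes for the receptors and SMAD transducers that read oocyte growth factors all passed the filter. EdgeR called 0 of 12, with 3 at an unadjusted p under 0.05, against 16.2% of all genes tested. All 12 log2 folds were positive, with a median of 0.58. Smad5, a transducer of BMP signals, stood at 70.0, 211, 96.7 and 65.5 CPM in NAC and at 32.5, 53.7, 57.7, 38.1, 45.1 and 37.8 in saline, so the groups did not overlap (log2 fold 1.31, SE 0.36 and adjusted p = 0.107 by edgeR). Smad1, of the same class, was the other gene of 12 with no overlap, against 5.38% of all genes tested (log2 fold 1.06, SE 0.40 and adjusted p = 0.224 by edgeR). Bmpr2, the receptor through which GDF9 and BMP15 signal, and Tgfbr1 had log2 folds of 0.92 and 0.66. Smad5 and Smad1 were not highest in the libraries rich in oocyte RNA: both peaked in NAC 2. Of the 12 genes, 10 were highest in NAC 2, the library with the highest summed markers of theca and stroma (1847 CPM), smooth muscle and pericytes (684), endothelium (186) and immune cells (73.7) and the lowest of granulosa cells (9837). The part of these other cells in the values of the 12 genes was not tested.

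Granulosa genes that oocyte factors are known to regulate were divided. Of 17, 12 passed the filter, edgeR called 0, 4 had an unadjusted p under 0.05 (16.2% of all genes tested), and 6 were positive and 6 negative with a median of -0.16. Slc38a3, an amino acid transporter gene of cumulus cells, stood at 72.9, 45.05, 24.2 and 107 CPM in NAC and at 94.2, 107, 236, 393, 248 and 220.1 in saline (log2 fold -1.67, SE 0.44 and adjusted p = 0.0970 by edgeR). Inhba, the activin subunit gene, stood at 20.2, 98.3, 16.1 and 29.5 CPM in NAC and at 25.6, 71.6, 338, 144, 1076 and 942 in saline (log2 fold -3.37, SE 1.11 and adjusted p = 0.191 by edgeR). Within saline its highest values were in saline 5 and saline 6, the libraries with the least oocyte RNA. Its lowest saline value was in saline 1, where oocyte RNA was also low, and a link with oocyte RNA was not tested. Ldha, the glycolytic enzyme gene, and Kitl, the ligand of the oocyte receptor KIT, had log2 folds of -0.74 and 1.32. Has2, a gene of cumulus expansion, had reads only in saline 4 (0.977 CPM), and Ptx3, another, had none.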

How the data were processed

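Polyadenylated RNA of 4 NAC and 6 saline captures was analysed from 1 table per library. Per the submitters' processing notes the authors used Salmon on GRCm38, with versions not given in the sources used here. Per the file headers, each deposited table holds estimated counts (reads Salmon assigned to a gene), TPM and lengths. The 1548 rows without a symbol (0.496% to 0.638% of reads) were left out. The members and lists were chosen with earlier results of these data known.

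Estimated counts were rounded and tested with edgeR 4.0.16 (R 4.3.3; quasi-likelihood, robust, TMM factors, default low-count filter, Benjamini-Hochberg adjustment over 10945 genes, threshold 0.05). On simulated counts the same fit recovered 10.2% of genes with a log2 change of 1, 51.1% at 2, 85.7% at 3 and 92% at 4. It called 12 unchanged genes there. Sums and shares have no test; shares need 500 member reads, floors use 3 reads and intervals are 95% Wilson intervals. Members described in full were 7 fixed genes, the 10 with the highest mean TPM and the 4 with the smallest unadjusted p; from the other lists, the 4 with the smallest p and, for oocyte genes, the 4 with the highest TPM. Others serve as contrast within a group.

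Positions and 31-base words came from GENCODE M21 on GRCm38, promoters from RefSeq (GRCm38.p6; 24 of 35 members matched, not Npm2, Oas1d, Mos, H1foo, Plat, Bcl2l10, Nlrp14, Zp1, Zp2, Gdf9 and Dppa3). Alternatives were library size alone, RLE factors, DESeq2 1.42.0, limma 3.58.1 on log2(TPM + 1) and log2(TPM + 0.1), no filter, a filter of 10 CPM in 4 libraries, the replicate number as a block, each library left out, and NAC 2 and NAC 3 left out. Chosen after seeing the data were sums and shares without Uchl1 and Tle6, reads per kilobase of annotated transcript, and TPM ratios of NAC 4 and saline 4.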

Additional observations from a re-analysis of the deposited data

Results flagged for a closer look

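In 39 groups of values (18 fully described members and the summed levels, by treatment), a single library lay far from the others of its group in 13, all of them single genes. Chance alone would flag about 1 in 20 independent groups, but these genes share the same libraries and some were chosen for varying together. That rate therefore cannot be set against the 13.

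Saline 4 stood high within saline for 9 genes. Bmp15 had 80.6 CPM there against 15.1 in the next library, Zp1 95.7 against 28.7, Zp2 161 against 20.7 and Zp3 351 against 113. Figla had 2.44 CPM against 0, Bcl2l10 309.5 against 95.1, Zar1 200.2 against 49.9, Nlrp5 41.5 against 10.8 and Nlrp14 104.0 against 24.96. Saline 4 had 8848 member reads, so these values rest on counts and not on single reads, except for Figla with 5 reads.

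NAC 4 stood high within NAC for 3 genes: Zp1 had 25.2 CPM against 3.61, H1foo 481 against 160 and Npm2 114 against 32.8. Oosp1 was the 1 gene with a low library, NAC 1, at 20.2 CPM against 72.5 in the next, NAC 3, where the value rests on 9 reads.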

How the results depend on the processing

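Members called stayed at 0 under each alternative except without saline 4, where 1 was called. The median log2 fold was 0.88 to 1.44 in 8 of the fits that left out 1 library, 0.05 without NAC 4 and 2.49 without saline 4; with library size alone it was 1.40, while the median of all genes moved to 0.19. On log2(TPM + 1) and log2(TPM + 0.1) it was 1.97 and 2.95. For 16 named genes, 6 of 142 values under other settings reversed: Zp2 was 0.90 and 2.14 and Zp3 0.54 and 0.85 on log2(TPM + 1) and log2(TPM + 0.1), Bmp15 was -0.66 without NAC 2 and NAC 3, and Uchl1 was -0.036 with the replicate block; the cause was not tested. With 1 library left out, Gdf9 ranged from -1.16 to 1.53, Bmp15 from -0.70 to 2.23, Uchl1 from -0.38 to 0.89, Tle6 from -0.72 to 1.44 and Zar1 from -0.37 to 2.93; 11 of the 16 genes did not reverse in these fits. As shares of reads in place of TPM, zona genes had 9.10% in saline 2, growth factors 6.17% in NAC 4, 10.9% in saline 2 and 12.8% in saline 4, and H1foo 13.1%, 11.0%, 9.87% and 8.87% in NAC 1, NAC 4, saline 2 and saline 4. The replicate block left 1 gene and 0 members called (median 1.32). Deviations of same-numbered libraries from their group means correlated at -0.01, 0.01, 0.01 and 0.20. The labels do not say whether the numbers stand for a pairing, and these values cannot exclude one. DESeq2 called 433 genes, the fit without a low-count filter 226 and edgeR 8, with 0 members in each; limma called 12 and 6 on the larger and smaller pseudocount, and library size alone 6. Depth limits NAC 3 most, where 1 read is 8.06 CPM, so a gene at 0 there was not detected and may not be absent.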

Other observations

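The egg-surface genes Astl and Izumo1r were looked at after their values were seen. Astl, which encodes the egg protease ovastacin that cleaves ZP2, stood at 4.33, 0, 0 and 9.67 CPM in NAC 1 to 4 and at 0, 11.8, 0, 64.0, 0 and 0 in saline 1 to 6. Izumo1r, which encodes the sperm receptor Juno, stood at 1.44, 0, 0 and 5.91 CPM in NAC and at 2.08, 0, 0, 40.0, 0 and 0.445 in saline. Both were highest in saline 4 and lower in NAC 4, as were Zp1, Zp2 and Zp3.

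Genes of the list of other oocyte genes that other cells also express kept a level where the oocyte genes were near 0. Zbed3 stood at 44.6 and 60.02 CPM in saline 5 and saline 6 and reached 472 in NAC 4 and 517 in saline 4. Taf4b, a transcription initiation factor gene, stood at 96.7, 45.05, 80.5 and 65.5 CPM in NAC and at 67.8, 84.3, 37.4, 63.0, 13.3 and 29.3 in saline, so its levels were of one order in most libraries.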
